A study of Mus musculus with 75 samples.

Results

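The insulin-like growth factor (IGF) axis was followed in bleomycin-injured mouse lung through 10 genes of the count table, namely the ligands Igf1 and Igf2, the receptors Igf1r and Igf2r, the binding proteins Igfbp2, Igfbp3, Igfbp4, Igfbp5 and Igfbp7, and the noncoding RNA H19. These were 10 of the 55536 genes counted, picked by their symbols in Ensembl release 96, and all 10 were found. The table held 1 library per mouse, made from right inferior lobes of 75 male C57BL/6JRj mice aged 12 to 14 weeks. Bleomycin, a cytotoxic drug that damages alveolar cells and leads to scarring, was given once into the trachea of BLEO-IPF mice, whose lungs were taken on days 7 (D7, n = 10), 14, 21, 28 and 35 (D14, D21, D28 and D35, n = 12 each) and 42 (D42, n = 7). The 10 control mice (CTRL) were labelled as given saline, whereas the treatment protocol called them untreated. As a limit of the model, only BLEO-IPF mice that had lost between 5% and 17% of their body weight by day 6 were randomized, so mice with a milder or a harsher course are not represented. Total counts per library ranged from 9240291 to 14665247, with a median of 10677163. Markers of alveolar type 2 cells, which define distal lung epithelium, were abundant in all libraries, with summed levels, in counts per 1000000 counts of the library (CPM), from 5496 on day 14 to 25525 on day 21.

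IGF1 and IGF2 are small secreted hormones that drive growth and survival through the tyrosine kinase receptor IGF1R. IGF2R, also called the cation-independent mannose-6-phosphate receptor, carries lysosomal enzymes and removes IGF2 from the cell surface without passing on its signal. The binding proteins hold IGFs in tissue fluid and plasma and are cut by proteases that release the ligand. In lung, fibroblasts and macrophages are known sources of IGF1, which has long been studied in pulmonary fibrosis. H19 and Igf2 are neighbours under shared imprinted control. Both are abundant before birth and largely silenced afterwards in most organs, while skeletal muscle keeps H19.

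H19 lies on the minus strand at chr7:142575529-142578143 of GRCm38 and Igf2 on the same strand at chr7:142650766-142666816, with 72622 bases between them. Each hosts a microRNA gene, and the mature sequences are shown because they are the part of either transcript with a defined target-recognition code and because the polyA libraries could not see them. All 4 were found in RefSeq (GRCm38.p6), and capitals mark the seed, bases 2 to 8.
mmu-miR-675-5p: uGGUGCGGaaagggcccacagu
mmu-miR-675-3p: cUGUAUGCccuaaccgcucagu
mmu-miR-483-5p: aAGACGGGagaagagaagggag
mmu-miR-483-3p: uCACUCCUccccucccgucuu
The miR-675 arms map to the minus strand within an H19 exon, at chr7:142577112-142577133 (5p) and chr7:142577078-142577099 (3p). The miR-483 arms lie within Igf2 but outside its exons, at chr7:142654968-142654989 (5p) and chr7:142654932-142654952 (3p). No 2 of the 4 share a seed. Both microRNA genes had 0 counts in all 75 mice, so the H19 and Igf2 counts below describe the host transcripts and do not measure the microRNAs.

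The other members are spread over the genome. Igfbp2 (chr1:72824503-72852474, plus strand) and Igfbp5 (chr1:72857932-72874884, minus strand) face each other with 5457 bases between them. Igfbp3 lies at chr11:7206086-7213923 (minus strand), Igfbp4 at chr11:99041244-99054392 (plus strand) and Igfbp7 at chr5:77349240-77408041 (minus strand). Igf1 is at chr10:87858265-87937042 (plus strand), Igf1r at chr7:67952827-68233668 (plus strand) and Igf2r at chr17:12682406-12769664 (minus strand). Genes on the opposite strand overlap 5 members. How the counting treated strand is not given in the sources used here, so reads could be shared with them. The overlapping genes held 11.5% as many counts as Igfbp7 (Polr2b), 3.77% as many as Igf2r (Airn) and 0.0681% as many as Igf1 (Igf1os), but 148% as many as Igf2 (Igf2os), whose own count is therefore uncertain. These are counts of whole genes and not of the shared bases, so they are upper limits. Polr2b overlaps Igfbp7 only from 77349240 to 77349324. The 2 genes that overlap H19 and another in Igfbp7 had no counts, nor had Gm49394, a predicted gene that spans nearly all of Igf2 on its own strand.

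Per length of transcript, the binding proteins were the abundant part of the axis in control lung. As CPM per kilobase of exon (RPKM), the CTRL mean was 359 ± 42.8 for Igfbp7 (SD, n = 10, also below), 112 ± 33.6 for Igfbp2, 62.9 ± 5.72 for Igfbp4, 52.6 ± 6.71 for Igfbp5 and 33.6 ± 6.05 for Igfbp3. The receptors followed, with 15.3 ± 1.94 for Igf2r and 6.34 ± 0.705 for Igf1r. The ligand Igf1 lay at 2.11 ± 0.43, H19 at 0.291 ± 0.102 and Igf2 at 0.0592 ± 0.0237. On day 14, Igf1 had passed Igfbp3 in this order, with 14.4 ± 3.43 RPKM (n = 12) against 7.38 ± 6.83. Of the 10 members, 9 passed the filter on low counts and Igf2 did not. H19 passed only through BLEO-IPF mice, since 3 of the 10 CTRL mice had at least 10 counts of it. The members had been chosen with these comparisons in view, so their differences between groups are given as values, without a test. Levels below are CPM with TMM scaling, and changes are log2 fold changes (log2FC) against CTRL with their standard errors (SE) from one edgeR fit over all 75 mice. In that fit, members past an adjusted p of 0.05 were 5 higher and 2 lower of 9 on D7, where 24.9% and 20.9% of all 16221 genes tested were called higher and lower. They were 6 and 2 on D14 (all genes 32.4% and 29.9%), 6 and 2 on D21 (28.3% and 25.8%), 6 and 2 on D28 (24.1% and 19.2%), 3 and 2 on D35 (16.9% and 13.1%) and 3 and 2 on D42 (13.7% and 11%). Nothing is read from these counts, since the choice of members used the same comparisons. Numbers of mice above or below CTRL are likewise descriptions. Shares over all genes were computed only for days on which all mice lay beyond CTRL, not for partial counts or for all BLEO-IPF mice together.

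Igf1, the main circulating and tissue growth factor of the axis, was higher in every BLEO-IPF group than in CTRL mice. CTRL mice had 15.1 CPM at the lowest, 20.4 at the median and 28.3 at the highest. On day 7 the values were 48.1, 79.2 and 91.1 CPM, and on day 14 83.8, 141 and 200.04 CPM. All mice of both days lay above the highest CTRL mouse. Day 21 gave 62.4, 118 and 238 CPM, day 28 31.9, 98.5 and 247 CPM, and day 35 43.02, 76.3 and 196 CPM, again with all mice above CTRL. Over all genes tested, such a separation above CTRL was met by 7.39% (D7), 9.46% (D14), 6.84% (D21), 2.1% (D28) and 2.44% (D35). On day 42 the values were 27.6, 77.05 and 140 CPM, and 6 of 7 mice lay above the highest CTRL mouse, where 4.21% of genes had all mice above. The lowest mouse of that day, D42 replicate 4 with 322 counts, was also the highest of its group for Igfbp2 and Igfbp3.

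The fitted Igf1 difference was largest on day 14 among the 6 days, at a log2FC of 2.77 ± 0.28 (6.82-fold), and smallest on day 42, at 1.75 ± 0.30 (3.37-fold). Means ran from 143 ± 34 CPM on D14 (SD, n = 12) through 134 ± 52.3 on D21, 119 ± 72.6 on D28, 92.6 ± 50.5 on D35, 74.3 ± 14.7 on D7 (n = 10) and 70.7 ± 37.7 on D42 (n = 7) to 20.9 ± 4.25 in CTRL mice. Neighbours in this order differed by less than the spread between mice, taken as the root mean square of their SDs, except for the last step from day 42 to CTRL. The mice of one day also parted widely from day 21 on, and the SD of day 28 was the largest of the 7 groups.

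**Figure D1:**
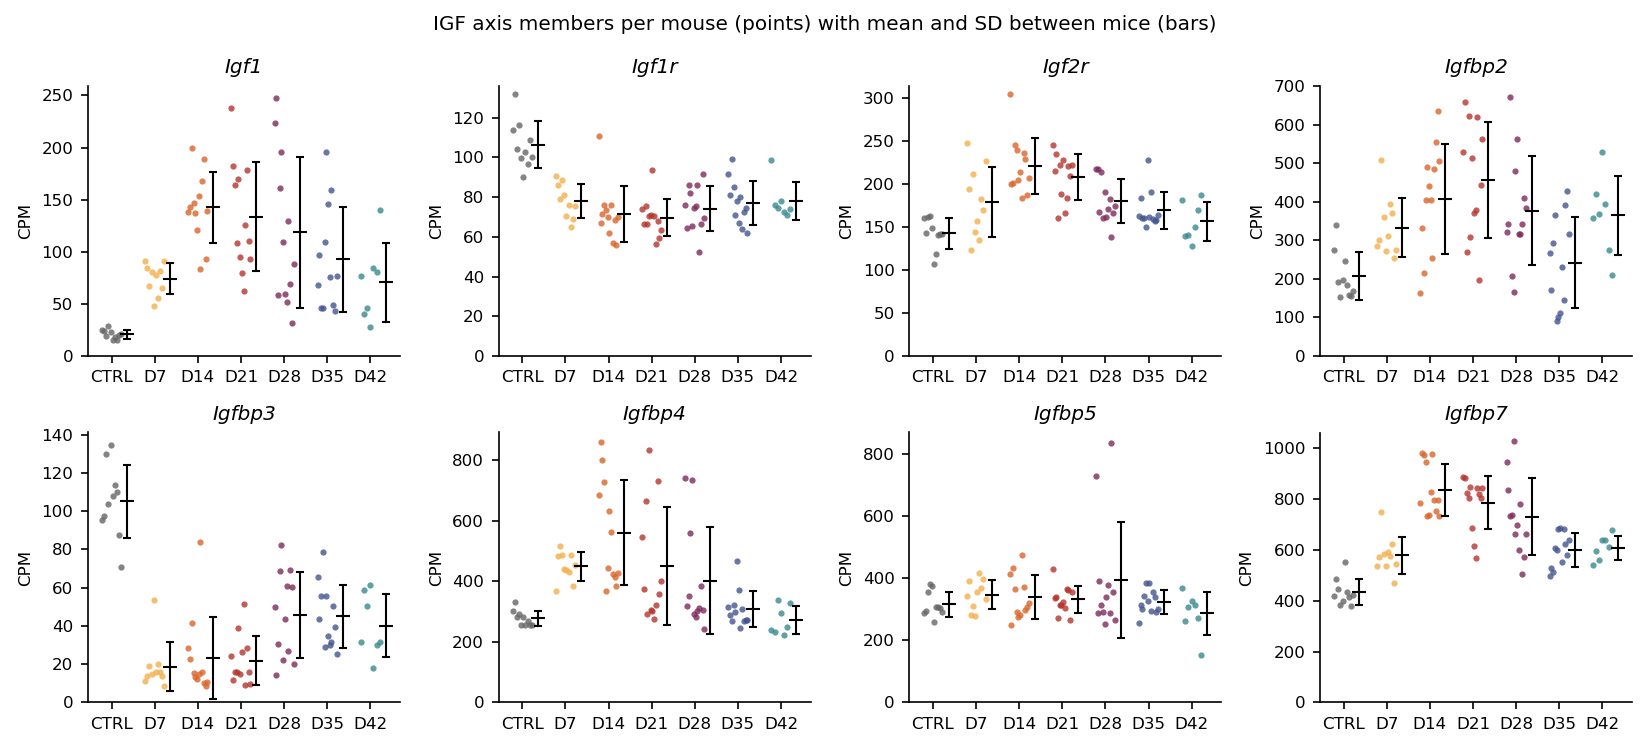
CPM of 8 members (y axes, linear from 0) by group (x axis), 1 point per mouse, with the mean and SD between mice as a bar to the right of each group (n = 10, 10, 12, 12, 12, 12 and 7). Igf1 lies above CTRL in 64 of 65 BLEO-IPF mice and Igfbp3 below the lowest CTRL mouse in 62 of 65, while Igfbp5 overlaps CTRL on every day.

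H19, the fetal noncoding RNA, was scarce in CTRL lung and higher in most BLEO-IPF mice. CTRL mice held between 3 and 14 counts, or 0.278, 0.732 and 1.11 CPM at the lowest, the median and the highest. Day 7 gave 0.0879, 1.72 and 4.33 CPM, day 14 0.922, 3.64 and 7.71 CPM, and day 21 0.808, 2.78 and 15.3 CPM. On day 14 the mice clustered, with 11 of 12 above the highest CTRL mouse, whereas on day 21 3 mice stood apart at 8.09, 11.9 and 15.3 CPM. On day 28 the values were 0.355, 2.94 and 111 CPM, on day 35 0.576, 1.43 and 4.05 CPM, and on day 42 0.691, 1.29 and 2.33 CPM. Over the 6 days, 53 of 65 BLEO-IPF mice (81.5%) lay above the highest CTRL mouse, and 1 mouse, D7 replicate 5 with a single count, lay below the lowest. The groups overlapped on every day. By group, the mice above CTRL were 8 of 10 on D7, 11 of 12 on D14, 10 of 12 on D21 and D28, 9 of 12 on D35 and 5 of 7 on D42.

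The H19 values of day 28 rested on 1 library. D28 replicate 10 held 1105 H19 counts, and the next mouse of that day had 125 counts (12.5 CPM). With this mouse the day 28 mean was 12.6 ± 31.1 CPM (n = 12) and the fitted log2FC 4.10 ± 0.64. Without it they were 3.63 ± 3.40 CPM (n = 11) and 2.32 ± 0.46. The refit without this mouse gave 2.38 on day 14 and 2.66 on day 21, which differ from 2.32 by less than that SE. With all mice, these days gave 2.38 ± 0.63 and 2.66 ± 0.63. The fitted log2FC with all mice was 1.44 ± 0.67 on D7, 1.17 ± 0.66 on D35 and 1.06 ± 0.75 on D42. All groups share their estimate of the spread in this fit, so D28 replicate 10 enters the SEs of every day. In the order of the group means, D28, D21, D14, D7, D35, D42 and CTRL, neighbours differed beyond their spread between D14 and D7 and between D42 and CTRL.

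The same library stood apart in muscle genes. The 9 skeletal muscle markers, among them the muscle creatine kinase Ckm and the fast myosins, summed to 2029.6 CPM in D28 replicate 10 and to between 4.61 and 18.6 CPM in the other 74 mice, and all 9 were higher there than in any other mouse. Its 7 cardiac muscle markers summed to 2516 CPM and its 5 brown adipose tissue markers to 376 CPM, of which all 7 and 4 of 5 were above all other mice. Adipoq (195 CPM) and Plin1 (173 CPM) made up most of the adipose sum. Cidea was at 5.91, Ucp1 at 0.901 and Elovl3 at 0 CPM, so the sum is not read as brown rather than other fat. Of the markers of developing or regenerating muscle, 2 of 6 were, and they summed to 1.6 CPM. The part of muscle RNA in the H19 value of this library was not tested. In the other mice with high H19 the skeletal muscle markers were at the common level, with 8.69 CPM in D21 replicate 5, 8.48 CPM in D28 replicate 5, 5.8 CPM in D21 replicate 10 and 7.51 CPM in D21 replicate 3. The mouse with the next highest skeletal muscle sum, D28 replicate 11 with 18.6 CPM, had the lowest H19 of day 28 at 5 counts.

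**Figure D2:**
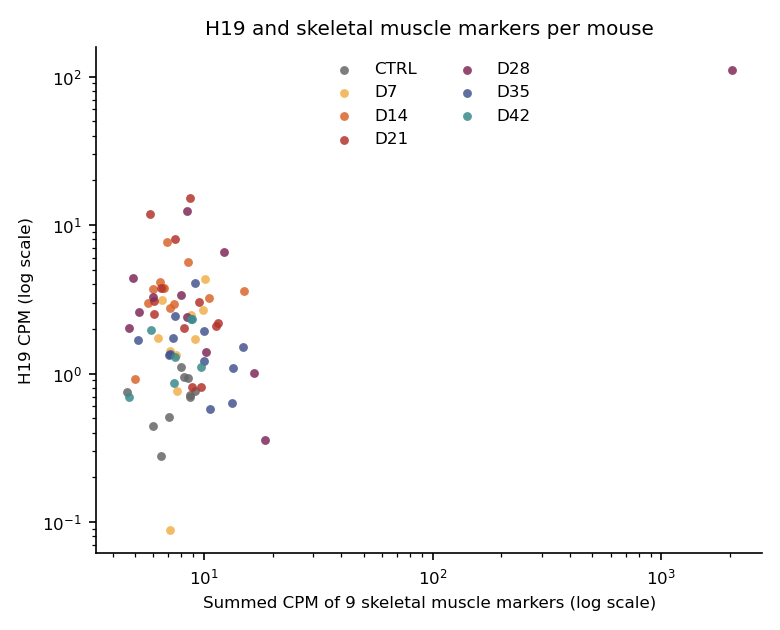
H19 CPM (y axis, log scale) against the summed CPM of 9 skeletal muscle markers (x axis, log scale) in each of the 75 mice, colored by group. One day 28 mouse lies alone at the upper right with 111 CPM of H19 and 2029.6 CPM of muscle markers, and the other 74 mice spread from 0.0879 to 15.3 CPM of H19 at 4.61 to 18.6 CPM of muscle markers.

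Igf2, the fetal growth factor next to H19, was at the limit of detection in every group. All 75 libraries together held 167 counts, the highest single mouse had 6, and 59 mice were at or under 3 counts, the floor used here, 15 of them at 0. Mice above the floor numbered 5 of 10 in CTRL and 11 of 65 in BLEO-IPF. Pooled over the mice of a group and scaled by library size alone, Igf2 gave 0.342 CPM in CTRL (exact Poisson 95% interval 0.242 to 0.469), 0.232 on D7 (0.152 to 0.34), 0.21 on D14 (0.14 to 0.301) and 0.12 on D21 (0.0685 to 0.194). It gave 0.216 on D28 (0.143 to 0.315), 0.117 on D35 (0.0655 to 0.193) and 0.211 on D42 (0.121 to 0.343). These intervals cover counting error only. One BLEO-IPF mouse, D28 replicate 1, exceeded the highest CTRL mouse in CPM, with 6 counts (0.602 CPM). Of the 65, 37 lay below the lowest CTRL mouse, which had 2 counts, and 51 below the CTRL median. The values thus leaned lower, but no direction is read from counts this low. D28 replicate 10, the mouse with 1105 H19 counts, held 4 Igf2 counts. A higher Igf2 level beside H19 was not detectable in these counts, and no fold change is given for counts this low. Gm49394, which covers nearly all of Igf2 on the same strand, had 0 counts. How the counting treated reads that fit both genes is not given. If such reads were left out, the Igf2 counts understate its level, which was not tested. Igf2os, the antisense partner, summed to 68 counts in the 10 CTRL mice and to 19 to 43 counts in the BLEO-IPF groups.

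**Figure D3:**
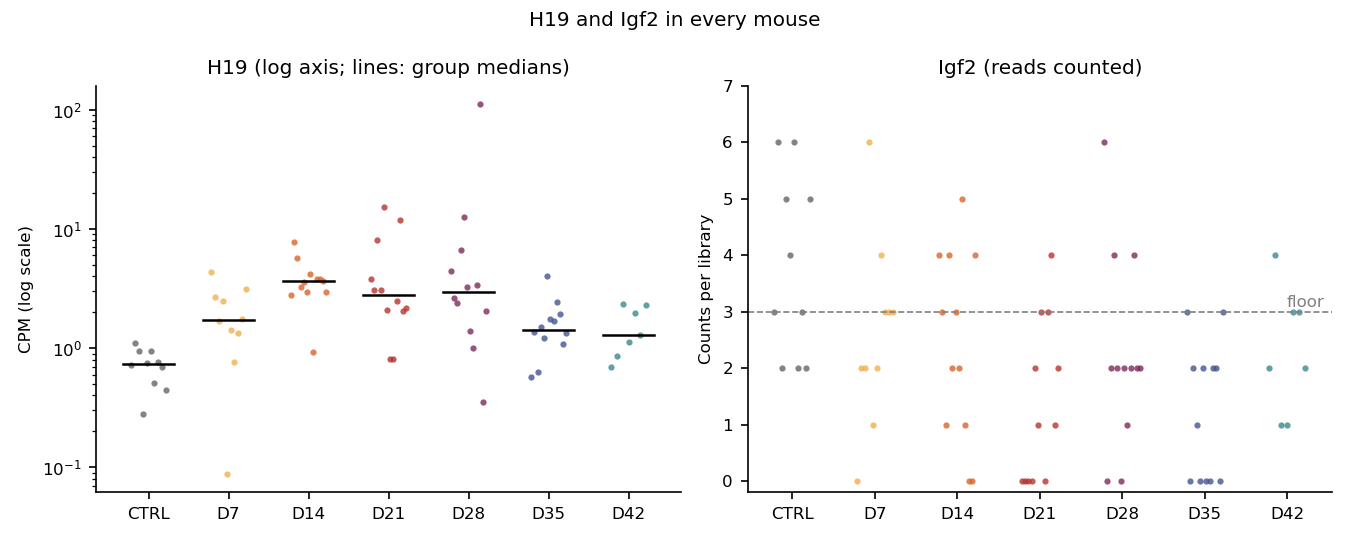
Left, H19 in CPM (log axis) for each mouse by group, with the group median as a line. Right, reads counted for Igf2 in the same mice (linear axis), with the floor of 3 counts dashed. H19 spans 0.0879 to 111 CPM, and Igf2 stays at or under 6 counts in all mice.

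The receptors differed from CTRL in opposite directions. Igf1r, which carries the signal of both ligands, was lower in BLEO-IPF mice, with 90.3, 103 and 132 CPM at the lowest, the median and the highest in CTRL mice, 56.1, 70.2 and 111 CPM on D14 and 71.1, 74.6 and 98.7 CPM on D42. The other days gave 64.9, 77.7 and 90.7 CPM (D7), 56.4, 69.2 and 93.6 CPM (D21), 52.2, 75.01 and 91.5 CPM (D28) and 62, 76.2 and 99.3 CPM (D35). No BLEO-IPF mouse was above the highest CTRL mouse, and 58 of 65 were below the lowest. The fitted log2FC was -0.45 ± 0.09 on D7, -0.57 ± 0.08 on D14, -0.61 ± 0.08 on D21, -0.52 ± 0.08 on D28, -0.47 ± 0.08 on D35 and -0.45 ± 0.10 on D42. The step from CTRL to day 7, the next group mean, was beyond the spread between mice (106 ± 11.8 against 78.1 ± 8.61 CPM), and neighbours among the 6 BLEO-IPF means, 69.7 to 78.1 CPM, differed by less than theirs.

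Igf2r, the clearance and lysosomal sorting receptor, was higher, with 108, 142 and 163 CPM in CTRL mice, 184, 211 and 304 CPM on D14 and 128, 150.2 and 187 CPM on D42. The other days gave 124, 177 and 248 CPM (D7), 161, 218 and 245 CPM (D21), 138, 173 and 218 CPM (D28) and 150.4, 162 and 228 CPM (D35). All 12 mice of day 14 were above the highest CTRL mouse, where 9.46% of all genes had all mice above. So were 6 of 10 on D7, 11 of 12 on D21, 9 of 12 on D28, 4 of 12 on D35 and 3 of 7 on D42. The fitted log2FC was 0.33 ± 0.10 on D7, 0.63 ± 0.09 on D14, 0.54 ± 0.09 on D21, 0.34 ± 0.09 on D28, 0.25 ± 0.09 on D35 and 0.13 ± 0.11 on D42. On day 42 the Igf2r difference was thus about the size of its SE, whereas that of Igf1r was several times its SE. In the order of means for Igf2r, only day 21 and day 28 (208 ± 27.1 against 180.3 ± 25.4 CPM) differed beyond their spread among neighbours.

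Igfbp3, the main IGF carrier of plasma, was the member with the lowest values relative to CTRL. CTRL mice had 70.9, 106 and 135 CPM. Day 7 gave 8.49, 15.4 and 53.8 CPM, day 14 8.44, 15.1 and 84.1 CPM, and day 21 9.00, 16.1 and 51.7 CPM. All mice of days 7 and 21 lay below the lowest CTRL mouse, a separation met by 3.8% and 4.85% of all genes tested, and 11 of 12 did on day 14, where 6.15% of genes had all mice below. From day 28 on the medians were higher than on day 14 but short of CTRL, with 14.5, 46.7 and 82.6 CPM on D28, 25.5, 41.7 and 78.4 CPM on D35 and 17.8, 31.7 and 61.3 CPM on D42. The ranges overlapped that of day 14, and the means of D42 and D14 differed by 17.1 CPM, less than their spread of 19.1 CPM. On day 42 all 7 mice were below the lowest CTRL mouse, as were 3.37% of genes, and on days 28 and 35 11 of 12 each, where 1.34% of genes had all mice below. The fitted log2FC was -2.49 ± 0.33 on D7 (5.62-fold lower), -2.19 ± 0.31 on D14, -2.26 ± 0.31 on D21, -1.20 ± 0.30 on D28, -1.23 ± 0.30 on D35 and -1.38 ± 0.36 on D42 (2.61-fold lower). In the order of means, CTRL and day 28 differed beyond their spread (105 ± 18.9 against 45.7 ± 22.7 CPM) and no other neighbours did.

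The highest Igfbp3 mouse of day 7 and that of day 14 shared some other values and differed in others. D7 replicate 5 (Igfbp3 53.8 CPM) had the lowest Igf1 and the lowest H19 of its group, at 48.1 and 0.0879 CPM. D14 replicate 8 (Igfbp3 84.1 CPM) likewise had the lowest Igf1 and H19 of its group, at 83.8 and 0.922 CPM. Igfbp5 differed, being the highest of its group in D14 replicate 8 (475 CPM) and the lowest in D7 replicate 5 (277 CPM). So did the monocyte-derived macrophage sum, which ranked 2 of 12 from the highest in D14 replicate 8 and 9 of 10 in D7 replicate 5. Igfbp7 ranked 2 of 12 and 8 of 10 in the same mice. In cell cycle markers D7 replicate 5 ranked 9 of 10 from the highest and D14 replicate 8 ranked 12 of 12. Both mice had the highest sum of the transitional alveolar epithelial markers in their group, at 1014 and 782 CPM. D14 replicate 8 also had the highest mesothelial and alveolar macrophage sums of its group, at 554 and 1668 CPM.

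Igfbp7, a secreted relative with low affinity for IGFs, and Igfbp4, which blocks IGF action until it is cut, were higher in the first weeks. Igfbp7 had 378, 421 and 552 CPM in CTRL mice, 734, 794 and 980.2 CPM on D14 and 541, 612 and 676 CPM on D42. The other days gave 469, 574 and 749.9 CPM (D7), 566, 823 and 887 CPM (D21), 506, 716 and 1028 CPM (D28) and 498, 602 and 687 CPM (D35). All mice of days 14 and 21 were above all CTRL mice, as were those of 9.46% and 6.84% of all genes. The lowest mouse of day 28 was D28 replicate 10, and the other 11 began at 572 CPM, above the highest CTRL mouse. Its log2FC was 0.42 ± 0.09 on D7, 0.95 ± 0.09 on D14, 0.86 ± 0.09 on D21, 0.75 ± 0.09 on D28, 0.47 ± 0.09 on D35 and 0.49 ± 0.10 on D42. Igfbp7 was above the CTRL median in 65 of 65 BLEO-IPF mice, as was Igf1. Igfbp4 had 254, 276 and 331 CPM in CTRL mice, 368, 447 and 515 CPM on D7, 366, 504 and 859 CPM on D14 and 222, 249.7 and 336 CPM on D42. Days 21 to 35 lay between, at 275, 366 and 834 CPM (D21), 241, 316 and 741 CPM (D28) and 246, 294 and 465 CPM (D35). All mice of days 7 and 14 were above all CTRL mice, a separation met by 7.39% and 9.46% of all genes, while on day 42 1 mouse was above and 4 of 7 were below the lowest. Its log2FC went from 0.69 ± 0.18 on D7 and 1.01 ± 0.17 on D14 to 0.70 ± 0.17 on D21, 0.53 ± 0.17 on D28, 0.15 ± 0.17 on D35 and -0.03 ± 0.19 on D42. On day 42 Igfbp4 thus lay around the CTRL level, whereas for Igfbp7 6 of 7 mice lay above the highest CTRL mouse.

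Igfbp2 and Igfbp5, the neighbours on chromosome 1, took different courses. Igfbp2, a binding protein of fetal and injured tissue, had 152, 187 and 341 CPM in CTRL mice, 164, 423 and 636 CPM on D14, 197, 477 and 659 CPM on D21, 90.4, 248 and 427 CPM on D35 and 209.6, 367 and 530.1 CPM on D42. It had 253, 306 and 508 CPM on D7 and 165, 342 and 672 CPM on D28. The groups overlapped on every day, with 36 of 65 BLEO-IPF mice above the highest CTRL mouse. Its log2FC was 0.69 ± 0.23 on D7, 0.98 ± 0.23 on D14, 1.14 ± 0.23 on D21, 0.87 ± 0.23 on D28, 0.23 ± 0.22 on D35 and 0.82 ± 0.25 on D42. The day 35 value turned to -0.17 when replicates 1 to 7 of each group were fitted alone, and 4 mice of that day were below the lowest CTRL mouse. Igfbp5, the most conserved of the binding proteins, stayed near CTRL, with means of 316 ± 40.3 CPM in CTRL mice and between 286 ± 68.5 CPM (day 42) and 393 ± 187 CPM (day 28) in BLEO-IPF mice, and a log2FC between -0.14 ± 0.16 on D42 and 0.32 ± 0.14 on D28. No neighbours in the order of means of either gene differed beyond their spread.

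The high end of Igfbp5 on day 28 was again D28 replicate 10, at 834 CPM, followed by D28 replicate 1 at 727 CPM, with the other 10 mice of that day at or under 389 CPM. Without D28 replicate 10 the day 28 log2FC was 0.16 ± 0.12. These mice had the highest and the next highest level of the mesothelial transcription factor Wt1 on that day, 18.3 and 7.42 CPM, and the next highest and the highest sum of 6 mesothelial markers, 526.4 and 643 CPM. The part of mesothelium in these values was not tested. Leaving out this library gave a day 28 log2FC of 2.56 ± 0.28 for Igf1, -1.26 ± 0.30 for Igfbp3 and 0.79 ± 0.08 for Igfbp7.

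Within groups, Igf1 varied with Igf2r, Igfbp4, Igfbp7 and H19, and Igfbp2 varied the other way. After the mean of each group was taken off the log2 CPM, Pearson's r over the 75 mice was 0.58 for Igfbp4 and Igfbp7, 0.55 for Igf1 and Igf2r, 0.50 for Igf1 and Igfbp7, 0.50 for H19 and Igfbp4, 0.48 for Igf1 and Igfbp4 and 0.47 for Igf1 and H19. Igfbp2 gave -0.51 with Igfbp4 and -0.49 with Igf1. Values were lower among Igf1r, Igfbp3 and Igfbp5, with 0.41 for Igfbp3 and Igfbp4, 0.36 for Igfbp3 and Igf1r and 0.25 for Igfbp3 and Igfbp5. All are descriptions over 36 pairs of members from the same libraries.

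Among 13073 genes with a mean log2 CPM above 1, the genes most like each member in this measure included matrix, endothelial and mesothelial genes. Igf1 was nearest to Ltbp2 (r = 0.88), a matrix protein that binds fibrillin, then to Cilp and Lhfpl2 (both 0.86). Igfbp4 was nearest to the proteoglycan Gpc1 (0.88), the stromal marker Cd248 (0.87) and Oaf (0.85). Igfbp7 was nearest to the matrix proteins Mgp (0.81) and Sparc (0.78) and to Ppic (0.77). Igfbp2 was nearest to Icam2, an endothelial adhesion molecule, and Aard (both 0.88) and to Tmcc2 (0.85). Igf2r was nearest to the giant cadherin Fat1 (0.89) and to Mrtfb and Hspg2 (both 0.82). Igfbp5 was nearest to Wt1 (0.73), Pkhd1l1 (0.67) and Muc16 (0.65), and Wt1 and the mucin Muc16 are mesothelial genes. The nearest genes of Igf1r were Zfp652 (0.74), Elk4 (0.72) and Crebbp (0.70), and those of Igfbp3 were Prkg2 (0.69), Col23a1 (0.66) and Galnt15 (0.65). H19 was nearest to the stromal genes Islr and Ccdc80 and to Cfp (0.70 each), and without D28 replicate 10 to Islr (0.78), Ccdc80 (0.76) and Fcrls (0.75) over 74 mice.

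Marker lists of lung cell types also differed between groups, and their part in the members' differences was not tested. In bulk lung, fewer cells of a type and less RNA per cell cannot be told apart. The 6 myofibroblast markers summed to 884 to 1088 CPM in CTRL mice, 1598 to 3078 CPM on D14 and 1096 to 1941 CPM on D42. The 9 markers of monocyte-derived macrophages summed to 665 to 886 CPM, 2615 to 13098 CPM and 1124 to 5017 CPM in the same groups, and the 8 endothelial markers to 3683 to 5023 CPM, 1869 to 3794 CPM and 2695 to 4483 CPM. The 8 fibroblast markers summed to 1791 to 2199.6 CPM, 3569 to 10772 CPM and 1754 to 2662 CPM, and the 6 alveolar type 2 markers to 18821 to 22859 CPM, 5496 to 19660.5 CPM and 20217 to 25259 CPM. No marker of these lists was at 0 in all mice. The macrophage and myofibroblast sums were thus above all CTRL mice on both days, as was Igf1 except in 1 mouse of day 42, whereas fibroblast and alveolar type 2 sums overlapped CTRL on day 42. Of 72 relations between the 9 members tested and 8 marker lists, computed on values with group means removed and permuted within groups (100000 resamples, two-sided), 45 had an adjusted p of r under 0.05, and 1e-05 was the smallest p the permutations could give. Igf1 followed the myofibroblast list, which includes Ltbp2, with r = 0.81 and rho = 0.83 (permutation p = 1e-05 each, adjusted 3.6e-05 and 4.24e-05, n = 75 mice, r = 0.82 without the 2 mice farthest from the median). It also followed the cell cycle list (r = 0.79, rho = 0.75) and the monocyte-derived macrophage list (r = 0.78, rho = 0.75), both at the same permutation p-values, and the r without the 2 farthest mice was 0.76 for each. Against the endothelial list Igf1 gave r = -0.69 and rho = -0.67 (same permutation p, r = -0.67 without the 2 farthest mice).

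Igfbp2 followed the endothelial list, with r = 0.88 and rho = 0.87 (permutation p = 1e-05 each, adjusted 3.6e-05 and 4.24e-05, r = 0.87 without the 2 farthest mice). The alveolar type 1 list was not among the 8 lists, so its relation to Igfbp2 was not tested. Igfbp4 ran opposite to the alveolar type 2 list, with r = -0.84 and rho = -0.82 at the same permutation p-values (r = -0.81 without the 2 farthest mice), and followed the myofibroblast list (r = 0.74, rho = 0.61, r = 0.69 without the 2 farthest, same permutation p-values). Igfbp3 gave r = 0.54 and rho = 0.56 with the fibroblast list (same permutation p-values, r = 0.51 without the 2 farthest) and r = 0.0086 with the myofibroblast list (rho = -0.069, permutation p = 0.948 and 0.602, adjusted 0.961 and 0.646, r = -0.09 without the 2 farthest). Igfbp5 had no relation with an adjusted p of r under 0.05 among the 8, and its largest was 0.28 with the fibroblast list (rho = 0.35, permutation p = 0.0603 and 0.004, adjusted 0.0905 and 0.00823, r = 0.38 without the 2 farthest). The mesothelial list was not among the 8, so its relation to Igfbp5 was not tested. H19 gave r = 0.47 and rho = 0.62 with the myofibroblast list (permutation p = 0.00115 and 1e-05, adjusted 0.00286 and 4.24e-05, r = 0.41 without the 2 farthest), and r = 0.73 without D28 replicate 10. The labels name no sequencing batch, so no values within batches are given.

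**Figure D4:**
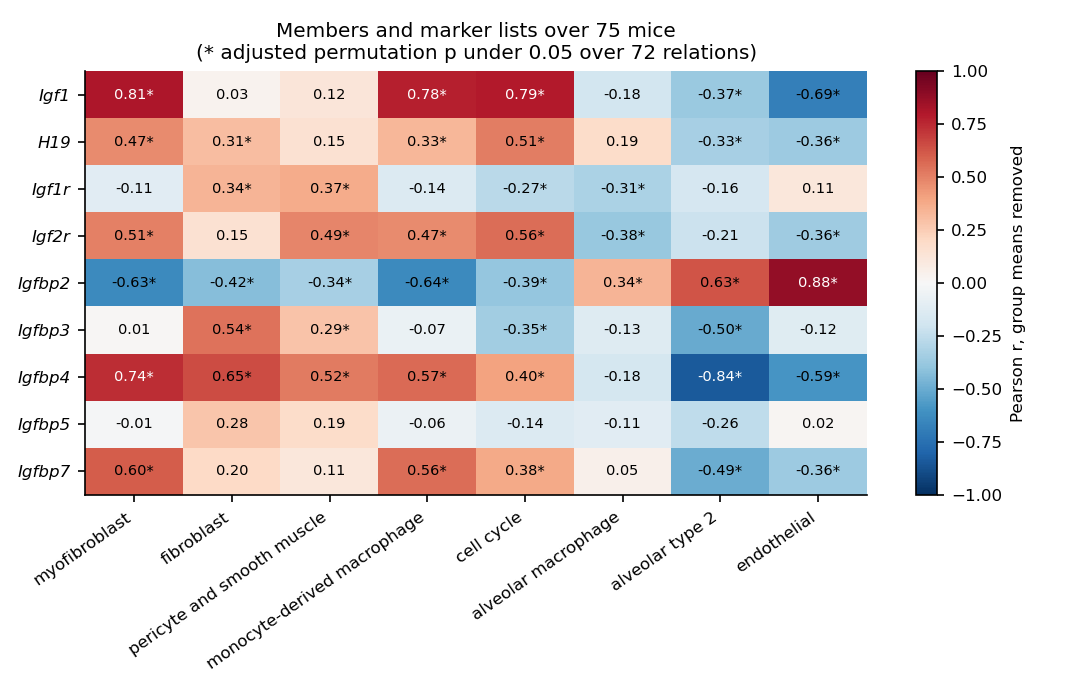
Pearson's r (color and number) over 75 mice between the log2 CPM of 9 members (rows) and 8 marker lists (columns) after removal of group means, with an asterisk where the permutation p adjusted over 72 relations was under 0.05. Igf1, Igfbp4 and Igfbp7 share high values with myofibroblast and macrophage lists, and Igfbp2 shows the opposite signs with 0.88 for the endothelial list.

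Between day 14 and day 42 the members parted. On day 42 the level was lower than on day 14 for Igfbp4 (log2FC -1.04 ± 0.19), Igf1 (-1.01 ± 0.29), Igf2r (-0.50 ± 0.10) and Igfbp7 (-0.46 ± 0.10), and H19 gave -1.32 ± 0.65. Igfbp3 gave 0.80 ± 0.33, Igf1r 0.12 ± 0.09, Igfbp2 -0.16 ± 0.25 and Igfbp5 -0.25 ± 0.15. Both days share the CTRL mice, and the members with the largest fitted differences from CTRL on day 42 were Igf1 and Igfbp3.

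The other genes of the pathway were taken from a list of 34 by role, of which 27 could be tested in the edgeR quasi-likelihood fit with Benjamini-Hochberg adjustment over 16221 genes. On day 14, 10 rose and 9 fell (70.4% of 27), with a median log2FC of -0.03 beside 0.01 for all genes, and 62.4% of all genes passed. The number called was 16 on D7 (7 higher, 9 lower, against 45.8% of all genes), 23 on D21 (10 and 13, against 54.2%), 18 on D28 (9 and 9, against 43.3%), 14 on D35 (3 and 11, against 29.9%) and 12 on D42 (2 and 10, or 44.4%, against 24.7%). With library size as the only scaling, day 42 gave 3 higher and 8 lower. Of the 27 genes, 6 passed on all 6 days, namely M6pr, which rose, and Igfbp6, Insr, Irs1, Stat5b and the AKT-controlled transcription factor gene Foxo1, which fell. Of all 16221 genes, 13.6% passed on all 6 days, so the 6 of 27 are a count read beside that share and not a result about the pathway. Igfals and Stat5a passed on none.

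Of the other binding proteins, Igfbp6, which prefers IGF2, fell on all 6 days. It had 169, 195 and 235 CPM in CTRL mice, 37.9, 55 and 106 CPM on D14 and 41.1, 99.6 and 148 CPM on D42, with no overlap with CTRL on either day. Such a separation below CTRL was met by 6.15% (D14) and 3.37% (D42) of all genes tested. Its log2FC was -1.79 ± 0.22 on D14 (edgeR adjusted p = 9.3e-11) and -0.96 ± 0.25 on D42 (adjusted p = 0.00313), and it was higher on day 42 than on day 14 by 0.83 ± 0.23 (adjusted p = 0.00442). Igfbp6 thus stayed below CTRL beside Igfbp3. Igfals, the liver-made partner of IGFBP3 in plasma, was near 1.51 CPM in CTRL mice and did not pass on any day (log2FC -0.29 ± 0.29 on D14 and -0.24 ± 0.34 on D42). Igfbp1 reached at most 1 count in any mouse.

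Among proteases of binding proteins and their inhibitors, Pappa, the protease that cuts IGFBP4, rose on days 7 to 28, most on day 14. It was not called on days 35 and 42. On D7, D21 and D28 the log2FC was 1.31 ± 0.46, 1.44 ± 0.45 and 1.10 ± 0.45 (edgeR adjusted p = 0.0161, 0.00526 and 0.0416). It had 2.19, 3.58 and 5.06 CPM in CTRL mice, 4.92, 13.5 and 91.3 CPM on D14 and 1.21, 2.91 and 3.65 CPM on D42, so the mice of day 14 spread widely and those of day 42 overlapped CTRL. Its log2FC was 2.99 ± 0.46 on D14 (edgeR adjusted p = 5.92e-08) and -0.52 ± 0.56 on D42 (adjusted p = 0.531), a difference of -3.52 ± 0.55 (adjusted p = 1.14e-06). Stc2, which encodes an inhibitor of that protease, rose on day 14 by 1.24 ± 0.16 (adjusted p = 1.02e-09) and on day 42 by 0.80 ± 0.18 (adjusted p = 0.000764). Stc1, of the same role in the list, went the other way, with a log2FC of -0.69 ± 0.15 on D14 (edgeR adjusted p = 8.86e-05). It was called on 4 of the 6 days. Stc2 had 3.15, 3.77 and 4.6 CPM in CTRL mice and 5.55, 7.62 and 15 CPM on D14, with no overlap, where 9.46% of all genes had all mice above.

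Among receptors and signal transducers outside the members, the named changes were smaller than that of Pappa on day 14, and all are given on the log2 scale. Insr, the insulin receptor, fell by 0.35 ± 0.07 on D14 (edgeR adjusted p = 8.08e-06) and by 0.21 ± 0.08 on D42 (adjusted p = 0.0336), and M6pr, the small mannose-6-phosphate receptor, rose by 0.19 ± 0.04 (adjusted p = 0.000124) and by 0.20 ± 0.05 (adjusted p = 0.00127). Irs1, an adaptor of both IGF1R and INSR, fell by 1.08 ± 0.12 on D14 (adjusted p = 1.43e-11), from 33.4, 36.3 and 42.5 CPM in CTRL mice to 11.4, 17.9 and 23.3 CPM with no overlap, and by 0.38 ± 0.14 on D42 (adjusted p = 0.0398). On D14, 6.15% of all genes had all mice below CTRL. Grb10, an imprinted adaptor that restrains both receptors, rose by 0.91 ± 0.13 on D14 (adjusted p = 1.36e-08) and gave 0.13 ± 0.15 on D42 (adjusted p = 0.544). Foxo3, a transcription factor held back by AKT, fell on day 42 by 0.35 ± 0.11 (adjusted p = 0.0106).

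Among the mRNA-binding proteins named for Igf2, Igf2bp2 turned over time. It rose by 0.42 ± 0.16 on D14 (edgeR adjusted p = 0.0167) and fell by 0.61 ± 0.19 on D42 (adjusted p = 0.013). Igf2bp1 gave -0.02 ± 0.17 on D14 (adjusted p = 0.914) and fell by 0.80 ± 0.21 on D42 (adjusted p = 0.00279), and Igf2bp3 had at most 8 counts in any mouse. In the growth hormone pathway, which drives Igf1 in liver, Stat5b fell by 0.47 ± 0.06 on D14 (adjusted p = 9.09e-11) and by 0.27 ± 0.07 on D42 (adjusted p = 0.00121). The kinase gene Jak2 rose by 0.37 ± 0.07 on D14 (adjusted p = 1.56e-05), and Socs2, a target and inhibitor of the pathway, fell by 0.23 ± 0.09 on D42 (adjusted p = 0.0419).

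**Figure D5:**
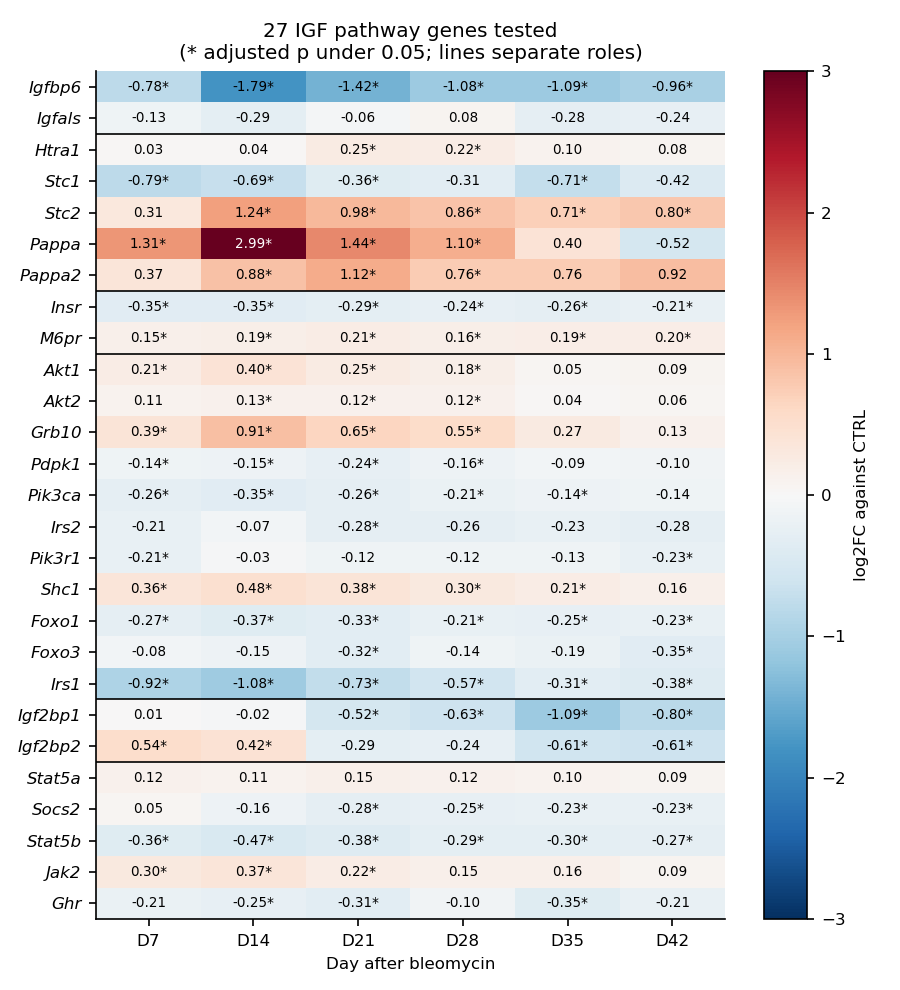
Log2FC against CTRL (color and number) of the 27 tested IGF pathway genes (rows, lines separate roles) on 6 days (columns), with an asterisk at an edgeR adjusted p under 0.05. Pappa stands out on day 14 at 2.99 and Igfbp6 on the same day at -1.79.

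H19 was set beside 16 other imprinted genes, of which 13 could be tested. On day 14, 4 rose and 3 fell, with a median log2FC of 0.23 beside 0.01 for all genes, and on day 42, 2 rose and 5 fell, with a median of -0.18. The genes called were 53.8% of the 13 on both days, against 62.4% and 24.7% of all genes. Mest, a paternally expressed gene first known from mesoderm, rose by 2.42 ± 0.29 on D14 (edgeR adjusted p = 4.47e-11) and by 1.66 ± 0.31 on D42 (adjusted p = 4.32e-05), with 4.6, 7.26 and 11.5 CPM in CTRL mice and 31.4, 40.004 and 60.03 CPM on D14. Nnat, which encodes a small membrane protein, rose by 1.84 ± 0.27 (adjusted p = 1.89e-08) and by 2.34 ± 0.29 (adjusted p = 7.26e-09). Slc38a4, an amino acid transporter gene, fell by 1.47 ± 0.17 (adjusted p = 4.68e-11) and by 1.11 ± 0.20 (adjusted p = 3.1e-05). Dlk1, another fetal imprinted gene, had at most 10 counts in any mouse. Genes of the list went in both directions. On all 6 days, 5 of the 13 were called, beside 13.6% of all genes, and with 13 genes nothing particular to imprinted genes is read from this.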

How the data were processed

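The authors prepared polyA-selected stranded libraries, sequenced them single-end and aligned the reads with STAR 2.7.0f to the mouse genome GRCm38, using gene models of Ensembl release 96. They deposited raw counts per gene for 55536 genes. The counting program and its treatment of strand and of multiply mapped reads are not given in the sources used here. All columns were matched to mice by the sample names, and groups came from the labels. No 2 mice of a group held the same library (375 pairs, lowest chi-square per degree of freedom 4.25).

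From these counts, edgeR 4.0.16 (R 4.3.3) fitted 1 mean per group over 75 mice with TMM factors, filterByExpr and the quasi-likelihood F test, adjusted over 16221 genes by Benjamini-Hochberg at 0.05. All comparisons with CTRL share the same 10 mice. The mice of a group are separate animals by their labels, and SDs are between mice. Log2 CPM used a prior count of 2. RPKM used exon lengths of the annotation. Tables were made in Python 3.11.15 with pandas 2.3.3 and scipy 1.17.1, figures with matplotlib 3.10.9. The fit was tested on simulated counts.

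The members and the gene lists were chosen with earlier results of these data known. Named genes were all members, Igfbp1, Igfbp6 and Igfals, for each role of the pathway list up to 2 called genes with the largest change on day 14 and on day 42, and 3 each of the imprinted list. Igf2bp3, Dlk1, Stc1 and single mice were named after their values were seen, and so were the relations with marker lists chosen. Alternatives were DESeq2 1.42.0, other scalings and filters, fits of fewer mice and a replicate block.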

Additional observations from a re-analysis of the deposited data

Results flagged for a closer look

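In 30 groups of member values with 4 to 10 mice, 2 single mice stood apart by Dixon's test at 95%, a test in which chance marks about 1 in 20 groups. These were groups of CTRL, D7 and D42. The days with 12 mice, D14 to D35, were not screened, so the H19 value of D28 replicate 10 was not among those tested. Igfbp3 in D7 replicate 5 was 53.8 CPM, and the next mouse of the group had 19.9 CPM. Igf1r in D42 replicate 1 was 98.7 CPM, and the next mouse had 78.04 CPM.

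Of the pathway genes, 12 differed between day 42 and day 14 in the edgeR contrast of the 2 days at an adjusted p under 0.05, where 34% of all genes did. The log2FC of day 42 minus day 14 was -3.52 for Pappa, -0.44 for Stc2 and 0.83 for Igfbp6 among the binding proteins and their proteases. It was -0.77 for Grb10, 0.70 for Irs1, -0.31 for Akt1, -0.31 for Shc1 and 0.21 for Pik3ca among the adaptors and kinases. The mRNA-binding protein genes gave -1.04 for Igf2bp2 and -0.78 for Igf2bp1. In the growth hormone pathway the values were 0.19 for Stat5b and -0.28 for Jak2.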

How the results depend on the processing

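Of 480 refits of the member fold changes under 9 alternatives, 479 kept their direction, with Igfbp2 on day 35 as the exception (-0.17 with replicates 1 to 7 only against 0.23). H19 on day 28 was the value that moved by over 1.5 times, from 4.10 to 2.28 with DESeq2, 3.07 with the replicate block, 2.64 with replicates 1 to 7 only and 2.32 without D28 replicate 10, a refit added after the values were seen. In fits of replicates 1 to 7, which hold fewer mice, the pathway genes called numbered 15 on day 21 (main 23, with 7 instead of 13 lower), 8 on day 35 (main 14, 5 instead of 11 lower) and 7 on day 42 (main 12, 5 instead of 10 lower), with 4 instead of 7 higher on day 7 and 5 instead of 9 lower on day 28. Without the low-count filter, which adds genes to the adjustment, 5 instead of 9 were higher on day 28 and 6 instead of 10 lower on day 42. Fitting each day with CTRL alone gave 6 instead of 3 higher on day 35 and 4 instead of 2 on day 42, and the cause was not tested. BLEO-IPF mice with Igf2 above every CTRL mouse went from 1 to 0 when at least 10 counts or 1 CPM was asked for, and the number with H19 stayed between 53 and 58. Replicate numbers did not pair the mice: over 57 pairs of a CTRL mouse and a BLEO-IPF mouse of the same number, the correlation of deviations from group means ran from -0.166 to 0.26, 11 were over 0.1, and 6 mice correlated best with their own number. With the replicate block the pathway genes called were 17, 18, 23, 17, 16 and 13 on the 6 days in order, with 5 instead of 3 higher on day 35. Depth limits H19 in CTRL mice (3 to 14 counts), and low counts limit Igf2 in all groups. With at least 10 counts asked of every mouse, H19 was not fitted. Without D28 replicate 10, 17 instead of 18 pathway genes were called on day 28.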
